A study of Homo sapiens with 6 samples.

Results

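Chromosome 21 was examined here as a short arm side, a gene-poor proximal segment of the long arm and a gene-rich distal segment, in windows of 10 kb on hg19. The gene-poor segment runs from 14300001 to 31000000, the gene-rich segment from 31000001 to the end of the chromosome, and the short arm side comprises the windows up to 11200000. A window was a member where its mean over the 6 libraries was at least 10 reads. This gave 3490 of the 278395 windows compared genome-wide, or 1.25%. They comprised 1652 of 1670 windows of the gene-poor segment, 1703 of 1713 of the gene-rich segment and 135 of 1120 on the short arm side. The 310 windows between the short arm side and the gene-poor segment held no read in any library. Of the windows left out elsewhere, 973 on the short arm side, 3 in the gene-poor segment and 9 in the gene-rich segment also held no read, and 12, 15 and 1 had a mean below the minimum. The members nearest the minimum had a mean of 10.3 reads and the windows just below it a mean of 9.0 reads. Membership is defined by position and this minimum alone.

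Chromatin immunoprecipitation and sequencing were done with antibodies against CDK2 and against PARP1 in T47D-MTVL cells, a line derived from T47D human breast cancer cells with an integrated viral promoter reporter. All cells were first deprived of hormone and serum, and all were fixed with formaldehyde. The 0 min cells received no treatment, and the 5 and 30 min cells were exposed to 10 nM R5020, a synthetic progestin. Each antibody and time has 1 library, so no spread between replicates can be given, and every comparison is between 2 libraries and not between conditions.

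PARP1 is a nuclear enzyme that binds DNA breaks and nucleosomes and builds chains of ADP-ribose on itself and on chromatin proteins. CDK2 is a kinase best known for driving cells into DNA replication, and the title of the series names a CDK2-dependent activation of PARP1 in the progestin response. Progestin bound to the progesterone receptor changes transcription within minutes in T47D cells. Chromosome 21 is an acrocentric chromosome, whose short arm carries ribosomal RNA genes and repeats that hg19 leaves mostly unsequenced. Its proximal long arm is AT-rich with long stretches that lack genes, and its distal long arm is GC-rich and densely packed with genes, so both kinds of chromatin lie on 1 small chromosome. NRIP1, a corepressor of nuclear receptors, and APP, the amyloid precursor protein, lie in the gene-poor segment. The gene-rich segment holds TFF1, a secreted trefoil peptide induced by oestrogen in breast cancer cells, TMPRSS2, a serine protease, and COL6A1, a collagen chain. Counted by order along the arm in a RefSeq gene table of the later build GRCh38.p14, 29 protein-coding genes precede GRIK1, a glutamate receptor gene near the boundary of the segments, and 189 follow it. Of those 189, 49 encode keratin-associated proteins, and 33 of these stand together with only 2 other genes directly behind GRIK1. Windows were not assigned to genes, because that table is of another build.

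The libraries held between 40097131 and 63448449 reads in all. A window of the gene-poor segment held a median of 140 to 247 reads per library, one of the gene-rich segment 167 to 257, and one of the short arm side 37 to 81. A dispersion was estimated from the differences between neighbouring windows over the genome, and equals 1 for independent reads. It was 6.11, 11.4 and 8.62 for PARP1 at 0, 5 and 30 min and 7.43, 52.2 and 24.0 for CDK2. In the gene-poor segment it was 5.03 to 11.6 for PARP1 and 7.65, 49.4 and 22.3 for CDK2, and in the gene-rich segment 4.72 to 10.1 and 6.37, 46.3 and 24.3. CDK2 at 5 min is thus the noisiest library in both segments. On the short arm side the dispersion was 11.7, 18.1 and 16.2 for PARP1 at 0, 5 and 30 min and 12.7, 47.5 and 27.3 for CDK2. The intervals of the short arm side use the genome-wide values instead, which are lower in all libraries but CDK2 at 5 min. All intervals below are 95% intervals that were widened by this dispersion, unless counting alone is named.

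Chromosome 21 as a whole took nearly the same share of the reads in every library. The share was 1.358%, 1.371% and 1.375% for PARP1 at 0, 5 and 30 min and 1.368%, 1.367% and 1.365% for CDK2. Within this nearly constant share, reads were distributed differently between the segments. The balance of the segments, the mean reads per window in the gene-rich segment over that in the gene-poor segment, needs no scaling of the library. It was 0.945 (0.934 to 0.956) for PARP1 and 0.940 (0.927 to 0.953) for CDK2 at 0 min, so both antibodies gave slightly more reads in gene-poor than in gene-rich windows before hormone. The PARP1 balance was 1.15 (1.13 to 1.16) at 5 min and 1.08 (1.07 to 1.10) at 30 min, on the gene-rich side of 1 at both times. The CDK2 balance was 0.890 (0.862 to 0.920) at 5 min and 1.23 (1.20 to 1.26) at 30 min, the lowest and the highest of the 6 libraries.

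**Figure D1:**
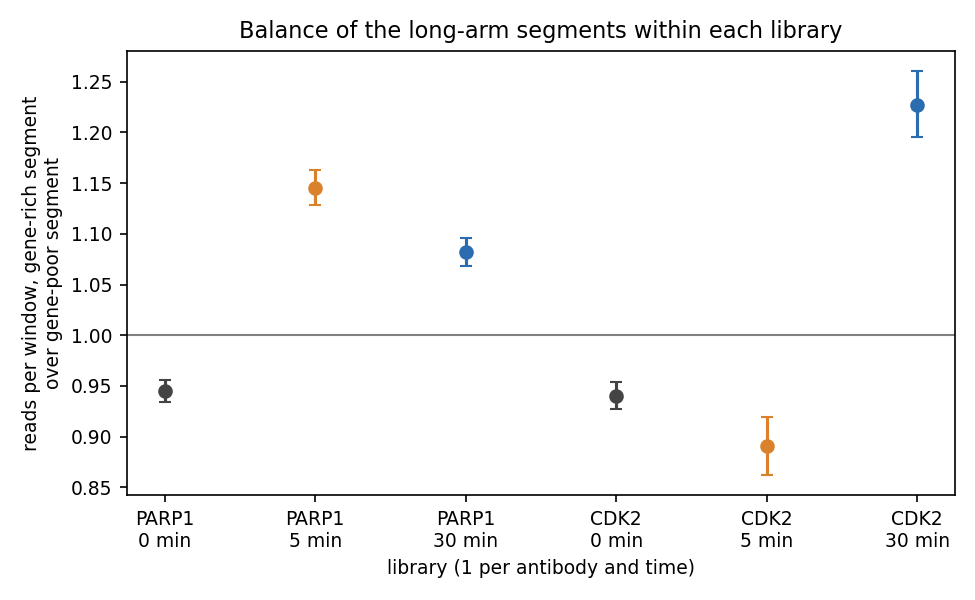
Mean reads per window in the gene-rich segment of chromosome 21 over that in the gene-poor segment (vertical axis, a ratio) for each of the 6 libraries (horizontal axis). Points are the ratio in 1 library and bars the widened 95% interval. Both 0 min libraries lie near 0.94, PARP1 at 5 and 30 min and CDK2 at 30 min lie above 1, and CDK2 at 5 min lies lowest.

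The levels behind these balances are given in RPM, the reads of a 10 kb window scaled to a common library total, for which the genome-wide mean is 3.59. The gene-poor segment held 4.0, 3.65 and 3.75 for PARP1 at 0, 5 and 30 min. The gene-rich segment held 3.78, 4.18 and 4.06 in the same libraries. In PARP1 the segments thus changed order after 0 min, and both later libraries have the gene-rich segment on top. For CDK2 at 0, 5 and 30 min, the gene-poor segment held 4.04, 4.17 and 3.50 and the gene-rich segment 3.80, 3.72 and 4.30. At 30 min the CDK2 segments were farther apart than in any PARP1 library. The read counts behind these levels were 368197, 352643 and 393551 for PARP1 and 301382, 398516 and 231918 for CDK2 in the gene-poor segment. In the gene-rich segment they were 358624, 416317 and 438947 for PARP1 and 292141, 365796 and 293445 for CDK2.

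**Figure D2:**
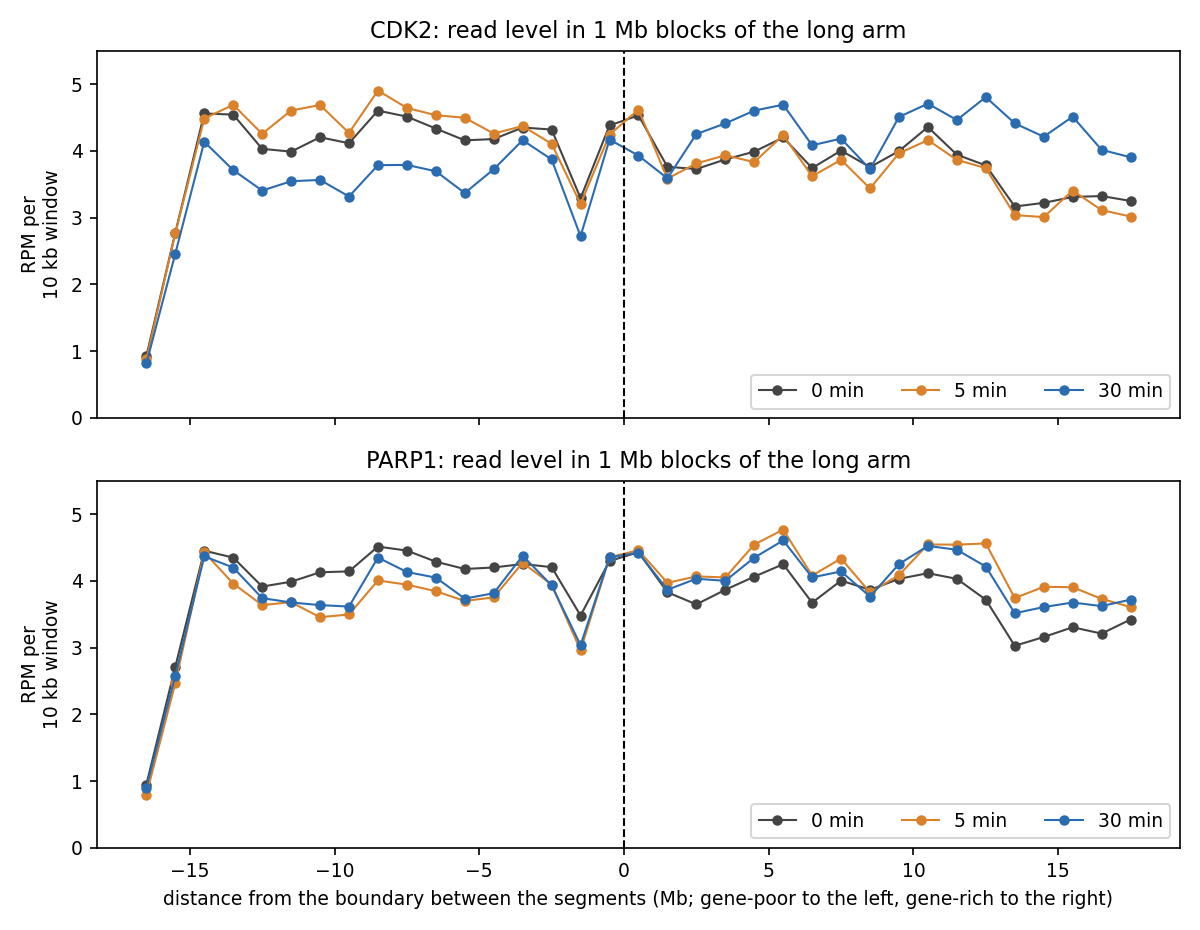
RPM per 10 kb window (vertical axis) in 1 Mb blocks of the long arm, by distance from the boundary of the segments in Mb (horizontal axis). Lines join the blocks of 1 library each, with CDK2 above and PARP1 below. The lowest level, in the block next to the centromere gap, is seen in all 6 libraries, and in CDK2 the 30 min line lies below the 0 min line across the gene-poor segment.

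For PARP1 at 5 against 0 min, the gene-poor segment was lower and the gene-rich segment higher. The depth-scaled ratio was 0.913 (0.901 to 0.926) in the gene-poor segment and 1.11 (1.09 to 1.12) in the gene-rich segment, and the balance was 1.21 times (1.19 to 1.24) that at 0 min. The shift was spread over many windows. Windows that were higher at 5 min made up 33.8% of the gene-poor and 65.6% of the gene-rich segment, against 48.6% of all windows genome-wide. Of the 17 blocks of 1 Mb in the gene-poor segment, 2 had a ratio above 1 and 14 an interval wholly below 1. Of the 18 blocks of the gene-rich segment, 17 had a ratio above 1 and 12 an interval wholly above 1.

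The highest PARP1 block of the long arm at 5 min was 45000001 to 46000000 in the gene-rich segment, with 22872 reads against 17613 at 0 min and a ratio of 1.24 (1.17 to 1.31). Of the 2863 blocks genome-wide, 73 had a higher ratio. The lowest block of the gene-rich segment was 39000001 to 40000000 with 0.990. In the gene-poor segment, the lowest block was 20000001 to 21000000 with 20209 reads against 23021 and a ratio of 0.837 (0.791 to 0.886), and 103 blocks genome-wide were lower. Its highest block, 30000001 to 31000000, had a ratio of 1.01 and borders the gene-rich segment. The 5 blocks from 43000001 to 48000000 formed the highest run, with ratios of 1.23, 1.24, 1.24, 1.18 and 1.16. At 0 min the last 4 of these blocks held 3.03 to 3.30 RPM per window with PARP1, less than the gene-rich segment as a whole.

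**Figure D3:**
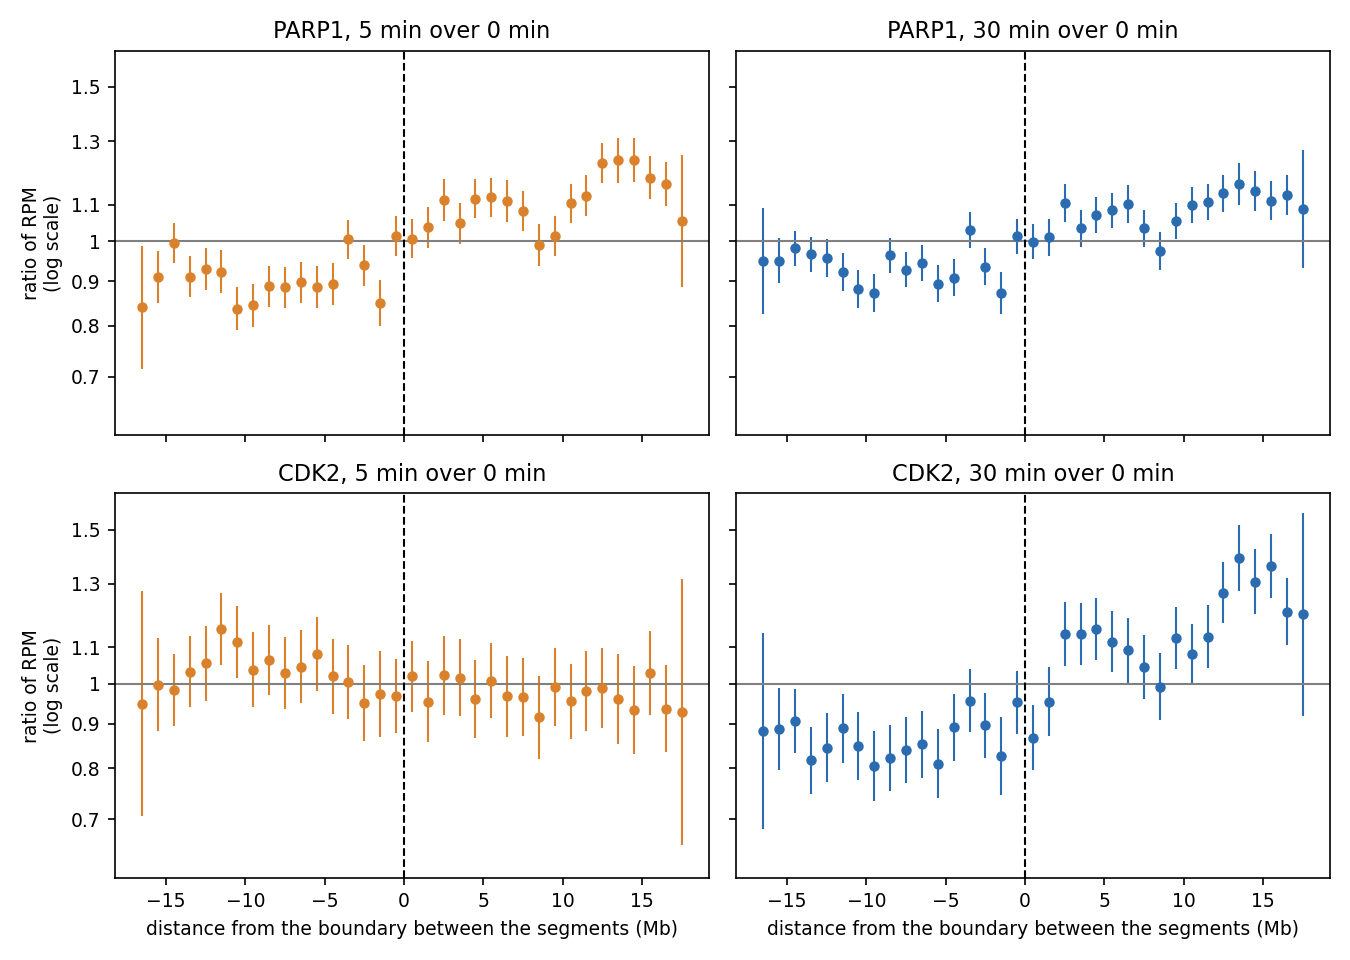
Ratio of RPM between 2 libraries (vertical axis, log scale) in 1 Mb blocks of the long arm, by distance from the boundary of the segments in Mb (horizontal axis). Points are blocks and bars the widened 95% interval, with PARP1 in the upper and CDK2 in the lower panels. For PARP1 at both times and CDK2 at 30 min most blocks left of the boundary lie below 1 and most blocks right of it above 1, while the CDK2 blocks at 5 min lie close to 1 or slope the other way.

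Few single windows stood apart between these libraries. Windows were called at a depth-scaled ratio of 2 or more, or of 0.5 or less, with a Benjamini-Hochberg adjusted value under 0.05 in an exact binomial test of the 2 libraries over all windows compared. For PARP1 at 5 against 0 min, 15 windows of the gene-rich segment and 4 of the gene-poor segment were called higher, which is 0.881% and 0.242% of their members against 0.893% genome-wide. Called lower were 5 windows of the gene-rich segment and 33 of the gene-poor segment, which is 0.294% and 2.00% against 1.73% genome-wide. The higher calls of the gene-rich segment and the lower calls of the gene-poor segment thus stood near the genome-wide share, and the opposite calls stood below it. With scaling on the 10% of windows with the lowest means, 31 windows of the chromosome were higher and 40 lower, against 22 and 47 with library totals. Of the 15 higher calls in the gene-rich segment, 11 lay from 43000001 to the chromosome end, which holds 507 of its 1703 windows. That stretch holds the run of highest block ratios in these same libraries, so this count is a description and adds no support. Of the 33 lower calls in the gene-poor segment, 16 lay in the thinly covered stretch before 16000001, which holds 152 of its 1652 windows.

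The PARP1 window called higher with the firmest interval at 5 min was 44460001 to 44470000. It held 118, 350 and 189 PARP1 reads at 0, 5 and 30 min, a ratio of 2.83 (1.64 to 5.09) for 5 against 0 min, and 129, 79 and 231 CDK2 reads. The next, 47040001 to 47050000, held 103, 262 and 165 PARP1 reads, a ratio of 2.43 (1.33 to 4.62), and 111, 33 and 254 CDK2 reads. Both windows had their highest PARP1 count at 5 min and their lowest CDK2 count at 5 min. Among the lower calls, window 32000001 to 32010000 of the gene-rich segment held 260, 105 and 167 PARP1 reads, a ratio of 0.385 (0.203 to 0.699), and 157, 0 and 164 CDK2 reads. It was low in both 5 min libraries. In the gene-poor segment, window 29410001 to 29420000 held 67, 6 and 54 PARP1 reads, a ratio of 0.0854 (0.00160 to 0.620), and 19, 76 and 53 CDK2 reads.

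For PARP1 at 30 against 0 min the same segments were lower and higher, by less. The ratio was 0.940 (0.928 to 0.951) in the gene-poor segment and 1.08 (1.06 to 1.09) in the gene-rich segment, and the balance was 1.15 times (1.13 to 1.16) that at 0 min. This comparison shares its 0 min library with that at 5 min. At 30 min 38.6% of gene-poor and 64.4% of gene-rich windows were higher, against 49.3% genome-wide. Of the gene-poor blocks 2 of 17 had a ratio above 1 and 9 an interval wholly below 1, and in the gene-rich segment 16 of 18 had a ratio above 1 and 12 an interval wholly above 1. Block 44000001 to 45000000 was the highest of the long arm, with 21405 reads against 16203 and a ratio of 1.16 (1.10 to 1.23), and 43 blocks genome-wide were higher. The lowest of the long arm was 29000001 to 30000000 with 0.872 (0.826 to 0.921).

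Few windows were called between the PARP1 libraries at 30 and 0 min. Called higher were 7 of the gene-rich and 3 of the gene-poor segment, or 0.411% and 0.182% against 0.406% genome-wide. Called lower were 0 and 12, or 0% and 0.726% against 0.587%. Window 44910001 to 44920000 of the gene-rich segment held 146, 277 and 383 PARP1 reads at 0, 5 and 30 min, a ratio of 2.31 (1.5 to 3.62), and 121, 474 and 133 CDK2 reads. Window 33400001 to 33410000 held 158, 270 and 368 PARP1 reads, a ratio of 2.05 (1.35 to 3.17), and 168, 255 and 220 CDK2 reads. In both windows the 5 min PARP1 count lay between the other two. All 3 higher calls of the gene-poor segment and 8 of its 12 lower calls lay in the thinly covered stretch before 16000001.

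Between the PARP1 libraries at 30 and 5 min, the segments differed in the opposite direction. The ratio was 1.03 (1.01 to 1.04) in the gene-poor segment and 0.972 (0.959 to 0.985) in the gene-rich segment, and the balance at 30 min was 0.945 times (0.926 to 0.964) that at 5 min. Here 13 of 17 gene-poor blocks had a ratio above 1, and 2 of 18 gene-rich blocks did. The lowest block of the gene-rich segment was 45000001 to 46000000 with 0.922 (0.870 to 0.978), the one that was highest at 5 min. Called higher were 22 windows of the gene-poor and 5 of the gene-rich segment, or 1.33% and 0.294% against 1.30% genome-wide. Called lower were 11 and 2, or 0.666% and 0.117% against 0.800%. The higher calls of the gene-poor segment thus stood near the genome-wide share. In that segment, 15 higher and 9 lower calls lay in the 152 windows of the thinly covered stretch before 16000001. Its other 1500 windows held 7 and 2. Window 40480001 to 40490000 of the gene-rich segment held 254, 118 and 311 PARP1 reads, so that its 30 min count was 2.43 times (1.38 to 4.46) that at 5 min.

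For CDK2 at 5 against 0 min the segments differed little. The ratio was 1.03 (1.01 to 1.06) in the gene-poor segment and 0.977 (0.953 to 1.00) in the gene-rich segment, and the balance was 0.947 times (0.914 to 0.981) that at 0 min. Scaling on the 10% of windows with the lowest means moves the median of all windows in this comparison by 0.32 on the log2 scale and gives 1.29 and 1.22, so whether the gene-rich segment was lower or higher depends on the scaling, while the balance does not. Of the gene-poor blocks 11 of 17 had a ratio above 1 and of the gene-rich blocks 5 of 18, and only 2 gene-poor blocks had an interval that left out 1. The highest of the long arm was 19000001 to 20000000 with 26612 reads against 17993 and a ratio of 1.15 (1.05 to 1.27), and 32 blocks genome-wide were higher.

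Called windows were numerous between CDK2 at 5 and 0 min, and most were lower, on the long arm as genome-wide. There were 91 higher and 211 lower windows in the gene-poor segment, or 5.51% and 12.8% of its members. In the gene-rich segment there were 71 and 248, or 4.17% and 14.6%. The genome-wide shares were 6.21% higher and 16.2% lower, so the shares of both segments lay below them. With the lowest-mean scaling 469 windows of chromosome 21 were higher and 321 lower, against 171 and 493 with library totals. Window 17940001 to 17950000 of the gene-poor segment held 274, 0 and 120 CDK2 reads at 0, 5 and 30 min. PARP1 held 257, 184 and 239 reads there. With a floor of 3 reads per library, CDK2 in this window was 117-fold lower at 5 than at 0 min. Window 29600001 to 29610000 held 184, 0 and 237 CDK2 reads and was 78.6-fold lower with this floor. In the gene-rich segment, window 32000001 to 32010000 was 67.0-fold lower with it. These folds depend on the floor and are not limits of an interval. With reads taken as independent, the upper limits of the ratio were 0.0106, 0.0158 and 0.0186 for these windows. Widened by the dispersion, the upper limits of the ratio were 0.305, 0.496 and 0.608 for these 3 windows. Windows without any read in the CDK2 5 min library numbered 10 in the gene-poor and 4 in the gene-rich segment, and 1.43% of windows genome-wide. In the other direction, window 19290001 to 19300000 of the gene-poor segment held 134, 729 and 146 CDK2 reads, a ratio of 4.25 (1.68 to 13.2), and 194, 249 and 261 PARP1 reads. Window 32000001 to 32010000 was also low with PARP1 at 5 min, and window 17940001 to 17950000 also held fewer CDK2 reads at 30 than at 0 min. The CDK2 5 min library has the highest dispersion, and its part in the result was not tested.

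For CDK2 at 30 against 0 min the gene-poor segment was lower and the gene-rich segment higher, and the balance differed by more than for PARP1 at either time. The ratio was 0.866 (0.847 to 0.885) in the gene-poor segment and 1.13 (1.11 to 1.15) in the gene-rich segment, and the balance was 1.31 times (1.27 to 1.35) that at 0 min. Windows that were higher at 30 min made up 35.3% of the gene-poor and 59.8% of the gene-rich segment, against 46.7% genome-wide. None of the 17 gene-poor blocks had a ratio above 1 and 14 had an interval wholly below 1. In the gene-rich segment 15 of 18 blocks had a ratio above 1, with 12 intervals wholly above 1 and 1 wholly below.

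Block 44000001 to 45000000 was again the highest of the long arm, with 16985 CDK2 reads at 30 min against 13714 at 0 min and a ratio of 1.39 (1.28 to 1.52), and 45 blocks genome-wide were higher. The 5 blocks from 43000001 to 48000000 had ratios of 1.27, 1.39, 1.31, 1.36 and 1.21, the same run that led in PARP1 at 5 min. The lowest block of the long arm was 21000001 to 22000000 in the gene-poor segment with 13299 reads against 18561 and a ratio of 0.806 (0.735 to 0.884), and 152 blocks genome-wide were lower. Within the gene-rich segment the block next to the boundary, 31000001 to 32000000, stood on the other side with 0.867 (0.796 to 0.944). The CDK2 ratio thus did not switch at the boundary itself but 2 blocks beyond it, as the plot of block ratios shows.

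For CDK2 at 30 against 0 min, 124 windows of the gene-rich and 40 of the gene-poor segment were called higher, which is 7.28% and 2.42% of their members against 5.46% genome-wide. Called lower were 88 and 234, which is 5.17% and 14.2% against 11.5% genome-wide. Of the 124 higher calls in the gene-rich segment, 67 lay from 43000001 to the chromosome end, where block ratios in the same libraries were already high. With the lowest-mean scaling, which moves the median of all windows by 0.14 on the log2 scale, 254 windows of the chromosome were higher and 273 lower, against 174 and 352 with library totals. Window 44780001 to 44790000 of the gene-rich segment held 121, 227 and 445 CDK2 reads at 0, 5 and 30 min, a ratio of 4.14 (1.89 to 10.2), and 145, 161 and 276 PARP1 reads. Both antibodies gave their highest count there at 30 min. Window 39100001 to 39110000 held 89, 177 and 321 CDK2 reads, a ratio of 4.06 (1.61 to 12.0), and 200, 250 and 248 PARP1 reads. In the gene-poor segment, window 16750001 to 16760000 held 233, 336 and 18 CDK2 reads, a ratio of 0.0869 (0.00386 to 0.484), and 240, 352 and 309 PARP1 reads. Window 22030001 to 22040000 held 195, 369 and 17 CDK2 reads and 232, 237 and 310 PARP1 reads, so both gene-poor windows were low only with CDK2 at 30 min among the 6 libraries.

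Between the CDK2 libraries at 30 and 5 min the segments stood farthest apart. The ratio was 0.839 (0.814 to 0.864) in the gene-poor segment and 1.16 (1.12 to 1.19) in the gene-rich segment, and the balance at 30 min was 1.38 times (1.32 to 1.44) that at 5 min. None of the 17 gene-poor blocks and 17 of the 18 gene-rich blocks had a ratio above 1, from 0.749 (0.664 to 0.845) at 25000001 to 26000000 to 1.45 (1.27 to 1.66) at 44000001 to 45000000. Called higher were 368 windows of the gene-rich and 173 of the gene-poor segment, or 21.6% and 10.5% against 18.4% genome-wide. Called lower were 144 and 309, or 8.46% and 18.7% against 15.1%. With the lowest-mean scaling, which moves the median of all windows by -0.18 on the log2 scale here, 456 windows of the chromosome were higher and 636 lower, against 576 and 483 with library totals.

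The antibodies were also compared at each time. At 0 min CDK2 and PARP1 gave nearly the same picture, with a ratio of 1.01 in both segments and a CDK2 balance 0.995 times (0.978 to 1.01) that of PARP1. At 5 min CDK2 was higher than PARP1 in the gene-poor segment, with 1.14 (1.12 to 1.17), and lower in the gene-rich segment, with 0.889 (0.867 to 0.912), and its balance was 0.778 times (0.750 to 0.806) that of PARP1. The lowest-mean scaling moves the median of all windows by 0.27 on the log2 scale at 5 min and puts the gene-rich segment at 1.07. At 30 min the order was the opposite, with 0.932 (0.912 to 0.953) in the gene-poor and 1.06 (1.04 to 1.08) in the gene-rich segment and a balance of 1.13 times (1.10 to 1.17). At 5 min 16 of 17 gene-poor and 1 of 18 gene-rich blocks had a ratio of CDK2 over PARP1 above 1, and at 30 min none of the gene-poor and 14 of the gene-rich blocks did.

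Called windows between the antibodies were rare at 0 min. There, 2 gene-poor windows and 1 gene-rich window were higher with CDK2, or 0.121% and 0.0587% against 0.442% genome-wide. Lower were 8 and 1, or 0.484% and 0.0587% against 0.733%. At 5 min 167 gene-poor and 50 gene-rich windows were higher with CDK2, or 10.1% and 2.94% against 8.02% genome-wide. Lower were 165 and 309, or 9.99% and 18.1% against 17.0%. At 30 min 38 and 53 were higher, or 2.30% and 3.11% against 3.84%. Lower were 172 and 105, or 10.4% and 6.17% against 10.3%. The lowest-mean scaling turned 234 higher and 506 lower windows of the chromosome into 447 and 346 at 5 min, and 99 and 305 into 159 and 247 at 30 min. Window 20120001 to 20130000 of the gene-poor segment held 107, 145 and 272 CDK2 reads at 0, 5 and 30 min and 126, 120 and 88 PARP1 reads, so that CDK2 was 4.89 times (1.85 to 15.2) PARP1 at 30 min. Among the gene-rich windows, 39140001 to 39150000 had the firmest higher call at 5 and at 30 min, with 164, 413 and 245 CDK2 reads and 155, 95 and 125 PARP1 reads.

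The block ratios of the antibodies were set side by side where the comparisons share no library. Across the 35 long-arm blocks, Spearman's rho between PARP1 and CDK2 was 0.904 for 30 against 0 min, with 32 blocks on the same side of 1, and -0.471 for 5 against 0 min, with 12 on the same side. Within the segments, rho for 30 against 0 min was 0.839 over the 18 gene-rich and 0.498 over the 17 gene-poor blocks. For 5 against 0 min it was 0.032 and -0.250. PARP1 at 5 against 0 min and CDK2 at 30 against 0 min gave 0.919 over the 35 blocks. Blocks of a segment share position, base composition and gene density, so these values are descriptions and carry no test.

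Set among the 22 other chromosomes as wholes, the gene-poor segment stood beyond the end of the range in each comparison with 0 min, and the gene-rich segment near its end in all but CDK2 at 5 min, while chromosome 21 as a whole stood near 1. The whole-chromosome ratio was 1.01 for PARP1 at 5 and at 30 min, 1.00 for CDK2 at 5 min and 0.998 for CDK2 at 30 min, each against 0 min. The gene-poor segment lay below every other chromosome for PARP1 at 5 min, for PARP1 at 30 min and for CDK2 at 30 min, where chromosome 4 was the lowest with 0.947, 0.964 and 0.929. For CDK2 at 5 min it lay above all of them, where chromosome 13 was the highest with 1.02. The gene-rich segment had 2 chromosomes above it in each of the 3 comparisons in which it was higher, led by chromosome 19 with 1.15 for PARP1 at 5 min and by chromosome 22 with 1.09 for PARP1 and 1.24 for CDK2 at 30 min. Chromosomes 19 and 22 are known for their gene density and chromosomes 4, 13 and 18 for their lack of it. Chromosome 18 stood closer to 1 than chromosome 4 for PARP1 at 5 and 30 min and CDK2 at 30 min, with 0.991, 0.993 and 0.982. For CDK2 at 5 min it had 0.981, below 1 and unlike the gene-poor segment. Each segment of chromosome 21 is a smaller stretch than the whole chromosomes it is set against, so these places are not at equal size. The block counts above give places at equal size only for single blocks picked as the highest or lowest of a segment. They do not place a segment as a whole.

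**Figure D4:**
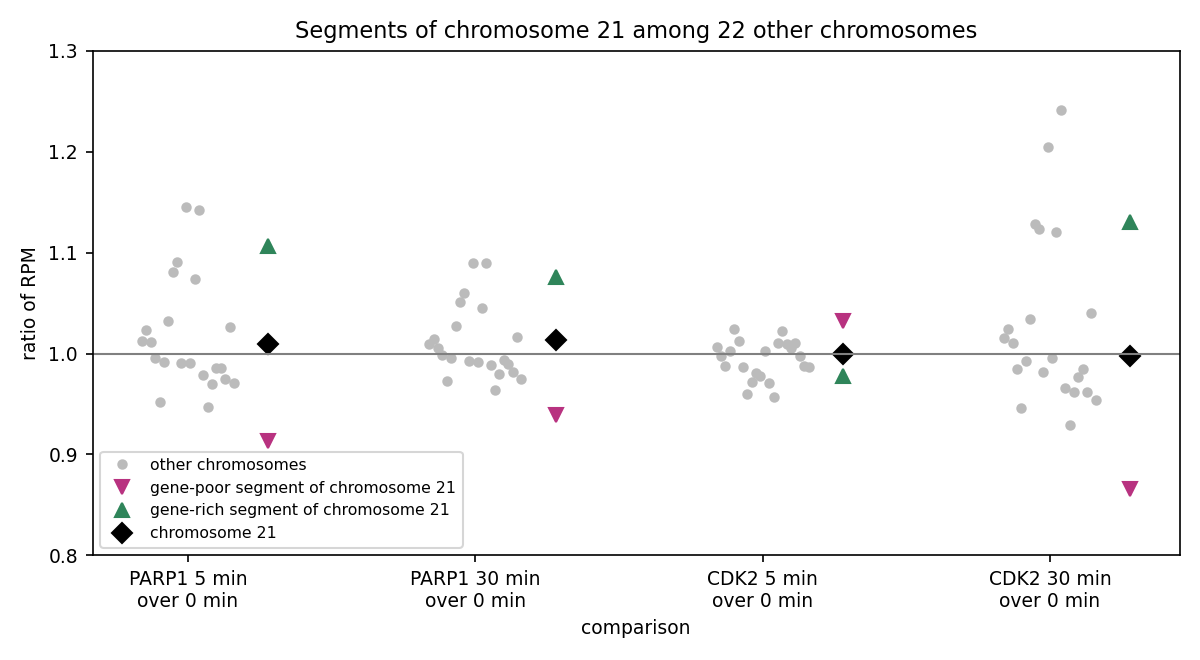
Ratio of RPM (vertical axis) for each of 4 comparisons with 0 min (horizontal axis), with 1 point per other chromosome, spread sideways for legibility. Triangles are the segments and diamonds the whole of chromosome 21. Chromosome 21 lies near 1 in each comparison, and its gene-poor segment lies outside the range of the 22 other chromosomes in all 4.

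Windows within a segment also differed more among themselves in the CDK2 libraries after hormone. The coefficient of variation of reads per window in the gene-poor segment was 29.1%, 33.8% and 31.5% for PARP1 at 0, 5 and 30 min and 31.6%, 50.9% and 45.9% for CDK2. In the gene-rich segment it was 20.8%, 23.6% and 21.1% for PARP1 and 23.6%, 48.9% and 38.4% for CDK2. The gene-rich windows were the more even in each library, and the part of the dispersion given above in the order of the libraries was not tested.

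The short arm side rests on few windows, and 1 of them holds much of its reads. Window 9820001 to 9830000 held 3465, 5294 and 10364 PARP1 reads at 0, 5 and 30 min and 2096, 1640 and 3157 CDK2 reads. This was 11.4%, 16.1% and 25.8% of the PARP1 reads of the short arm side and 8.94%, 6.34% and 14.4% of its CDK2 reads. For PARP1 at 30 against 0 min the short arm side had a ratio of 1.17 (1.12 to 1.21), and without this window it had 0.976 (0.934 to 1.02) over the other 134 windows. The higher PARP1 level of the short arm side thus rested on 1 window. At 5 against 0 min its PARP1 ratio was 1.04 (0.990 to 1.09) with and 0.983 without that window. For CDK2 at 5 against 0 min the ratio was 0.861 (0.783 to 0.947) with and 0.886 (0.803 to 0.977) without it, and for CDK2 at 30 against 0 min 1.05 (0.974 to 1.13) and 0.986. The next highest window by mean, 10700001 to 10710000, held 1355, 1124 and 1370 PARP1 reads and 1159, 1449 and 542 CDK2 reads, and its PARP1 counts did not follow those of the first. Called windows on the short arm side, each against 0 min, numbered 3 higher and 9 lower for PARP1 at 5 min. This is 2.22% and 6.67% of its members, against 0.893% and 1.73% genome-wide. For PARP1 at 30 min 2 and 3 were called, or 1.48% and 2.22% against 0.406% and 0.587%. For CDK2 at 5 min 9 and 34 were called, or 6.67% and 25.2% against 6.21% and 16.2%. For CDK2 at 30 min 10 and 30 were called, or 7.41% and 22.2% against 5.46% and 11.5%.

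The calls depend on treating reads as independent. After all counts were divided by the dispersion of the comparison, no window of either long-arm segment was called in any of the 9 comparisons, and on the short arm side only window 9820001 to 9830000 was called. It was called for PARP1 at 30 against 0 min with 2.63 (2.42 to 2.86), against 0.00251% of windows genome-wide, and for CDK2 at 30 against 5 min with 2.77 (1.94 to 4.01), against 0.000718%. It was also called for CDK2 against PARP1 at 5 min with 0.314 (0.227 to 0.427), against 0.00287%, and at 30 min with 0.482 (0.411 to 0.563), against 0.00323%. Genome-wide shares in the other comparisons were 0.000359% for PARP1 at 5 against 0 min, for PARP1 at 30 against 5 min and for CDK2 at 5 against 0 min, 0% for CDK2 at 30 against 0 min and 0.00431% for CDK2 against PARP1 at 0 min. Single windows of the long arm are therefore given as counts of 2 libraries. The ratios of segments and blocks carry intervals that allow for the dispersion between neighbouring windows. These intervals do not cover differences between the blocks of a segment. For PARP1 at 5 against 0 min, gene-rich blocks ran from 0.990 to 1.24, beside a segment interval of 1.09 to 1.12.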

How the data were processed

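Reads per 10 kb window of the 6 libraries were taken as the authors deposited them, as whole-number counts without normalization. Alignment used Bowtie 1.0.0 and hg19 (GRCh37), per the submitters' processing notes. For duplicate reads and reads with several matches, the handling was not given in the sources used here. No input or spike-in library was analysed here, and neither was base composition. Nothing in the labels ties the libraries to cultures or batches.

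Segments follow fixed positions on chromosome 21, and the segments and lists were chosen with earlier results of these data known. Libraries were scaled by their totals, of 55772389, 58495554 and 63448449 reads for PARP1 at 0, 5 and 30 min and 45111064, 57793168 and 40097131 for CDK2. Reads were summed per segment and per 1 Mb block with a mean of at least 1000 reads. For a library, the dispersion divides the robust variance of differences of neighbours by that of Poisson counts. For a comparison it uses the spread around the ratio of the 20 windows on either side. Both also contain real local differences. For widened intervals of single windows, counts were divided by the dispersion of the comparison. For those of balances, segments and blocks, the counting variance was multiplied by the dispersion of each library. Intervals and floors cover no error between cultures. PCR reads without molecular identifiers are not independent molecules.

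Named per comparison, segment and direction were up to 3 called windows whose interval bound lay farthest from 1, at least 100 kb apart, of which the text gives a selection made after their values were seen. Also named were the highest and lowest block of each segment and the windows of highest mean. Alternatives were TMM factors (edgeR 4.0.16), median-of-ratios factors (DESeq2 1.42.0) and scaling on the 10% of windows with the lowest means, other minimums (1 and 50 reads), a fold limit of 1.5, a boundary moved by 1 Mb, the median over windows, leaving out the top 1% of windows and dividing by the dispersion. Python 3.11.15, numpy 2.4.6, scipy 1.17.1, pandas 2.3.3, matplotlib 3.10.9 and R 4.3.3 were used.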

Additional observations from a re-analysis of the deposited data

Results flagged for a closer look

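The balance of the segments moved in opposite directions with the 2 antibodies between 0 and 5 min. At 5 min it was 1.21 times that at 0 min for PARP1 and 0.947 times for CDK2. It also moved in opposite directions between 5 and 30 min, to 0.945 times for PARP1 and to 1.38 times for CDK2. The balance with CDK2 relative to that with PARP1 was below 1 at 5 min, at 0.778, and above 1 at 30 min, at 1.13. Each value compares 2 single libraries, and these differences were not tested.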

How the results depend on the processing

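The change in balance of the segments was recomputed under 6 alternatives for each of 9 comparisons (boundary moved either way, 2 other minimums, top windows left out, median over windows). All 54 values lay within the widened interval of the reported value, and for 8 comparisons on the same side of 1. For CDK2 against PARP1 at 0 min, whose interval holds 1, the median over windows gave 1.01. No interval was computed for the alternatives. Counts of called windows on chromosome 21 did change. In the order PARP1 5 against 0 min, 30 against 0 and 30 against 5, CDK2 5 against 0, 30 against 0 and 30 against 5, and CDK2 against PARP1 at 0, 5 and 30 min, they were 69, 27, 52, 664, 526, 1059, 18, 740 and 404. With a fold limit of 1.5 they were 482, 263, 327, 1442, 1325, 1840, 209, 1524 and 1142, and after division by the dispersion 0, 1, 0, 0, 0, 1, 0, 1 and 1. A minimum mean of 50 reads, which tests fewer windows, gave 43, 9 and 16 for the 3 PARP1 comparisons and 5 for CDK2 against PARP1 at 0 min. The other 32 counts stayed within 1.5 times. Genome-wide shares for the fold limit of 1.5, the higher minimum and the other scalings are not given here. These changes therefore cannot be called particular to chromosome 21. Single segment ratios depended on the scaling. Under the 3 other scalings, 15 gene-poor and 14 gene-rich values moved out of the widened interval of the reported ratio. Within it stayed 12 of each, and 1 more gene-rich value is among the reversals below. With lowest-mean scaling, CDK2 at 30 against 5 min gave 0.740 and 1.02 in the gene-poor and gene-rich segments. CDK2 at 30 against 0 min gave 0.956 and 1.25, and CDK2 against PARP1 at 30 min 0.996 and 1.13. Of single segment ratios whose interval leaves out 1, 5 values fell on the other side of 1. Without its 2 highest windows the short arm side had 0.981 for PARP1 at 30 against 0 min, 0.988 for PARP1 at 30 against 5 min and 1.01 for CDK2 against PARP1 at 30 min. Lowest-mean scaling gave the short arm side 1.08 for CDK2 at 5 against 0 min and the gene-rich segment 1.07 for CDK2 against PARP1 at 5 min. Among ratios whose interval holds 1, the gene-rich segment for CDK2 at 5 against 0 min had 1.02 with TMM, 1.02 with median-of-ratios and 1.22 with lowest-mean scaling, and the short arm side for PARP1 at 5 against 0 min had 0.993 without its 2 highest windows. The causes were not tested. No paired analysis was possible because each antibody and time has 1 library, and no library could be left out. Median depth per window was lowest on the short arm side, at 37 to 81 reads.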

Other observations

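Across the windows of a segment, Spearman's rho between pairs of libraries ranged from 0.730 to 0.964 on the short arm side, from 0.258 to 0.519 in the gene-poor segment and from 0.063 to 0.547 in the gene-rich segment. In the gene-rich segment the lowest value was that between CDK2 at 5 and at 30 min, and the highest that between PARP1 and CDK2 at 0 min. Windows of a segment share the depth and dispersion of their libraries, and these values are descriptions.

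Window 36570001 to 36580000, which has the highest mean of the gene-rich segment, held 306, 310 and 328 PARP1 reads at 0, 5 and 30 min and 206, 639 and 307 CDK2 reads. The highest mean of the gene-poor segment was that of window 14340001 to 14350000, with 484, 485 and 538 PARP1 reads and 319, 606 and 316 CDK2 reads. In both windows the PARP1 counts were close to each other and the CDK2 count at 5 min was the highest of the 6.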
